A study of Mus musculus with 20 samples.

Results

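The 33 genes described here encode the enzymes and carriers through which brain cells take up, split, store and pass on glucose. They cover glycolysis from hexokinase to pyruvate kinase, lactate dehydrogenase, glucose and lactate carriers, the regulators PFKFB and PDK, glycogen enzymes, the polyol pathway and Txnip. They are a list of named genes of these pathways, and all 33 were found among the 57180 gene identifiers of the count table and passed the filter on low counts in each comparison. The libraries were poly(A) RNA from punches of the paraventricular thalamic nucleus (PVT) and the posterior insular cortex (pIC) of mice, taken at week 7. Control mice had received vehicle and the others a single intraperitoneal dose of 200 mg/kg streptozotocin (STZ), which destroys the insulin-producing beta cells and here served as a model of painful diabetic neuropathy. Of the 20 libraries, each region had 4 from control and 6 from STZ mice. The sources used here give no strain, age, sex or blood glucose. The labels do not say whether each library came from its own mouse or from pooled animals, so p-values measure only the spread between these libraries.

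Brain cells take up glucose through GLUT1 at the blood vessel wall and in glia and through GLUT3 in neurons, and hexokinase traps it as glucose 6-phosphate. Glycolysis turns it into pyruvate, which enters mitochondria through pyruvate dehydrogenase or is reduced to lactate, and monocarboxylate carriers move lactate between astrocytes, oligodendrocytes and neurons. A small glycogen store lies mainly in astrocytes. In diabetes the polyol pathway, in which aldose reductase turns excess glucose into sorbitol and sorbitol dehydrogenase turns that into fructose, is a textbook route of nerve damage, and Txnip is a gene that responds to glucose.

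Total counts were 17939029 to 25533369 a library. Thalamic and cortical markers separated the regions as labelled. Summed thalamic neuron markers were 433 to 1760 CPM (counts scaled to library size) in PVT and 128 to 174 CPM in pIC libraries, and cortical excitatory markers were 196 to 974 CPM in PVT and 1462 to 2636 CPM in pIC. The punches also held other regions to varying degrees. Summed striatal markers ranged from 265 to 3725 CPM in PVT and from 412 to 3722 CPM in pIC libraries, and hypothalamic markers from 5.1 to 941 CPM in PVT. PVT control replicate 4 stood apart, since it held pituitary transcripts (14327 CPM summed over 6 markers). STZ and control PVT libraries also differed in other cells' markers. Ependymal markers summed to 114 to 150.5 CPM in controls and 70.2 to 95.8 CPM in STZ libraries, with 8 of 9 genes lower by the test. Choroid plexus markers ranged from 2955 to 5991 and from 1339 to 3339 CPM, and 3 of 9 oligodendrocyte markers were lower. Neuron markers summed to 4265 to 6473 CPM in PVT and 7906 to 9588 CPM in pIC libraries, and oligodendrocyte markers to 6550.3 to 9958 CPM in PVT and 2972 to 6525 CPM in pIC. In such bulk tissue, fewer cells of a type and less RNA per cell cannot be told apart.

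Promoter sequences of 4 members that differed between the regions are shown because glycolytic promoters are known for short motifs shared across the pathway. They are the 250 bases before a RefSeq transcription start in build GRCm38.p6, all on the plus strand. Capitals mark ACGTG on either strand, the core of the hypoxia response element, and its longer form CACGTG, an E-box that contains ACGTG on both strands. Ldha and Pgk1 were lower in PVT than in pIC, and Slc16a3 and Txnip were higher.
Ldha, chr7:46845554-46845803: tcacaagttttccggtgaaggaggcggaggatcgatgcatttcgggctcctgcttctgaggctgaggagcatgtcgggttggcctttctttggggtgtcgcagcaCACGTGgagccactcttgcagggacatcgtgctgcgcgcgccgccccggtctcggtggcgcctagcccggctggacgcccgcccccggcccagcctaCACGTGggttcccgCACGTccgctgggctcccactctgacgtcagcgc
Pgk1, chrX:106186850-106187099: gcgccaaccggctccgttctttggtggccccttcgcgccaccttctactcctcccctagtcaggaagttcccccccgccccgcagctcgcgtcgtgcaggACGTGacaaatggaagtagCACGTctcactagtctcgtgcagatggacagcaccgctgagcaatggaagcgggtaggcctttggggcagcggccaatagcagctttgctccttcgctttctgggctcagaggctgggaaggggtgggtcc
Slc16a3, chr11:120948817-120949066: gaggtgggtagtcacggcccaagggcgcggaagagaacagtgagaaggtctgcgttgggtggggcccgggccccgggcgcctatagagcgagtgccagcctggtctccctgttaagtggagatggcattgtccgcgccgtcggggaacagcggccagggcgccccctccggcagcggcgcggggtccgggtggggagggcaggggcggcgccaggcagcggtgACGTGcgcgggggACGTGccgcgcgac
Txnip, chr3:96557707-96557956: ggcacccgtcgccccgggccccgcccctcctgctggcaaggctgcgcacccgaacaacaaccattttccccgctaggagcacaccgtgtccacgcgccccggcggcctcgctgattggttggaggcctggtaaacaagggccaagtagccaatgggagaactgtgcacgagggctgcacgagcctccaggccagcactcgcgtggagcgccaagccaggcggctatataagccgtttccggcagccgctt
The Ldha promoter held 3 matches, of which 2 were CACGTG, while Pgk1 and Slc16a3 held 2 each and Txnip none. RefSeq lists a further Ldha start whose window holds neither motif.

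Windows of 300 bases (250 before to 50 after the start) were searched for all genes of the RefSeq table, on both strands. Of the 46 windows of 30 members, 21 (45.7%) held ACGTG and 6 (13%) held CACGTG. Among all 32851 windows the shares were 19.6% and 7.15%. Counted by gene, ACGTG stood in a window of 56.7% of the members with a window and of 21.8% of all 27025 genes. It stood in 9 of 16 members that were lower in PVT than in pIC in both control and STZ mice. Of those that were higher it stood in 2 of 3, and of those that passed the test in neither in 5 of 10. ACGTG therefore occurred in members of each kind. An exact pair of CACGTG motifs with a spacer of fixed length, the strict form of the carbohydrate response element, was also searched for. None of the 32851 windows held it, so its absence is no trait of the members. Imperfect forms of the element were not searched for, so the search cannot show whether Txnip or another member carries one. Akr1b3, Slc16a7 and Slc2a3 had no entry.

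Levels are compared between genes as CPM per kb of exon, the length being the union of all annotated exons of a gene. This length can exceed that of the main transcript, so the order of genes depends on it. In PVT control libraries the enzymes of the lower pathway led, with Aldoa at 444, Gapdh at 376, Ldhb at 305, Pgam1 at 271 and Pkm at 233 CPM per kb (means, n = 4). Without the length the order was another, with Gapdh at 1554, Aldoa at 1294, Pkm at 1167 and Ldhb at 479 CPM. Regulators and carriers lay far below, the highest being Pdk2 at 28.2 and Slc2a3 at 16 CPM per kb. Some glycolytic enzymes were as low, with Pfkl at 18 and Pfkp at 14.8 CPM per kb. Pfkfb4 stood at 1.96, the lactate carrier genes Slc16a7 at 1.71 and Slc16a3 at 0.612, and Hk2 at 0.583 CPM per kb. Hk1, the hexokinase typical of brain, stood at 30.1 CPM per kb, so the induced isoform Hk2 was a minor part of the hexokinase transcripts.

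**Figure D1:**
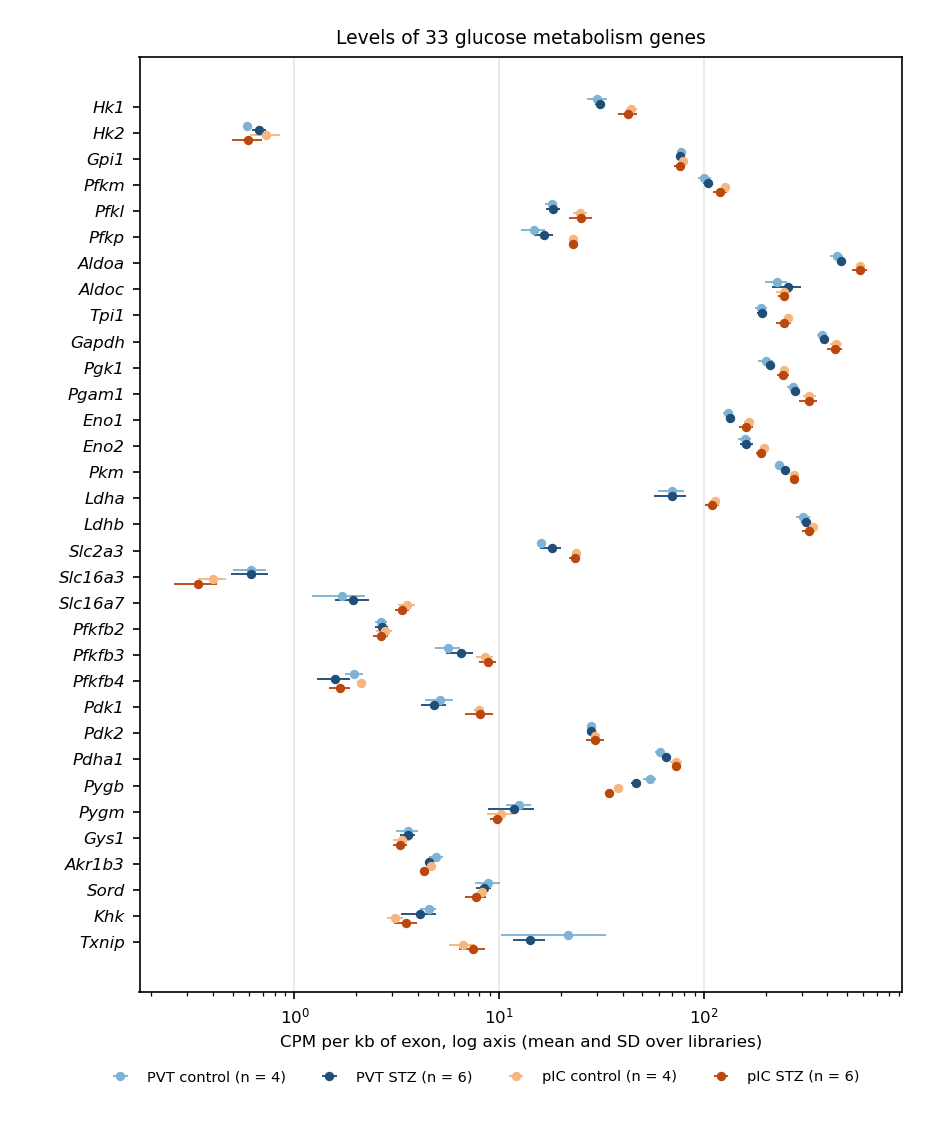
Level of each of the 33 genes in the 4 groups, as CPM per kb of exon on a log axis, with the mean and SD over 4 control or 6 STZ libraries. PVT control libraries run from Aldoa at 444 to Hk2 at 0.583 CPM per kb.

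The comparison of STZ with control mice asks whether diabetes moved this pathway's transcripts in either region. No member passed the test in PVT or in pIC, so the transcripts of glycolysis, lactate, glycogen and polyol enzymes were not detectably different. In PVT 0 of 33 members had an adjusted p under 0.05 in edgeR's quasi-likelihood test, where 2.07% of all 17076 genes tested did, and 2 had an unadjusted p under 0.05, against 17.8% of all genes. In pIC the count was 0 of 33, with 1.4% of 16189 genes called, and 3 members had an unadjusted p under 0.05, against 11.8% of all genes. DESeq2 called 0 members in PVT and 1 in pIC (Pygb), and limma-voom called 0 in both. The members' median log2 fold change was 0.03 in PVT and -0.04 in pIC, beside 0.00 for all genes in each. In either region, the 95% interval of the log2 fold change lay within 0.5 of 0 for 30 of the 33 members. The groups did not overlap for Hk2 and Pygb in PVT, as for 6.2% of all genes, and for Pygb and Pfkfb4 in pIC, as for 4.28%. The members with wider intervals were Pfkfb4, Slc16a7 and Txnip in PVT and Hk2, Pfkfb4 and Slc16a3 in pIC. For the 9 genes from aldolase to pyruvate kinase, the log2 fold changes ran from 0.02 to 0.17 in PVT and from -0.06 to 0.00 in pIC.

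**Figure D2:**
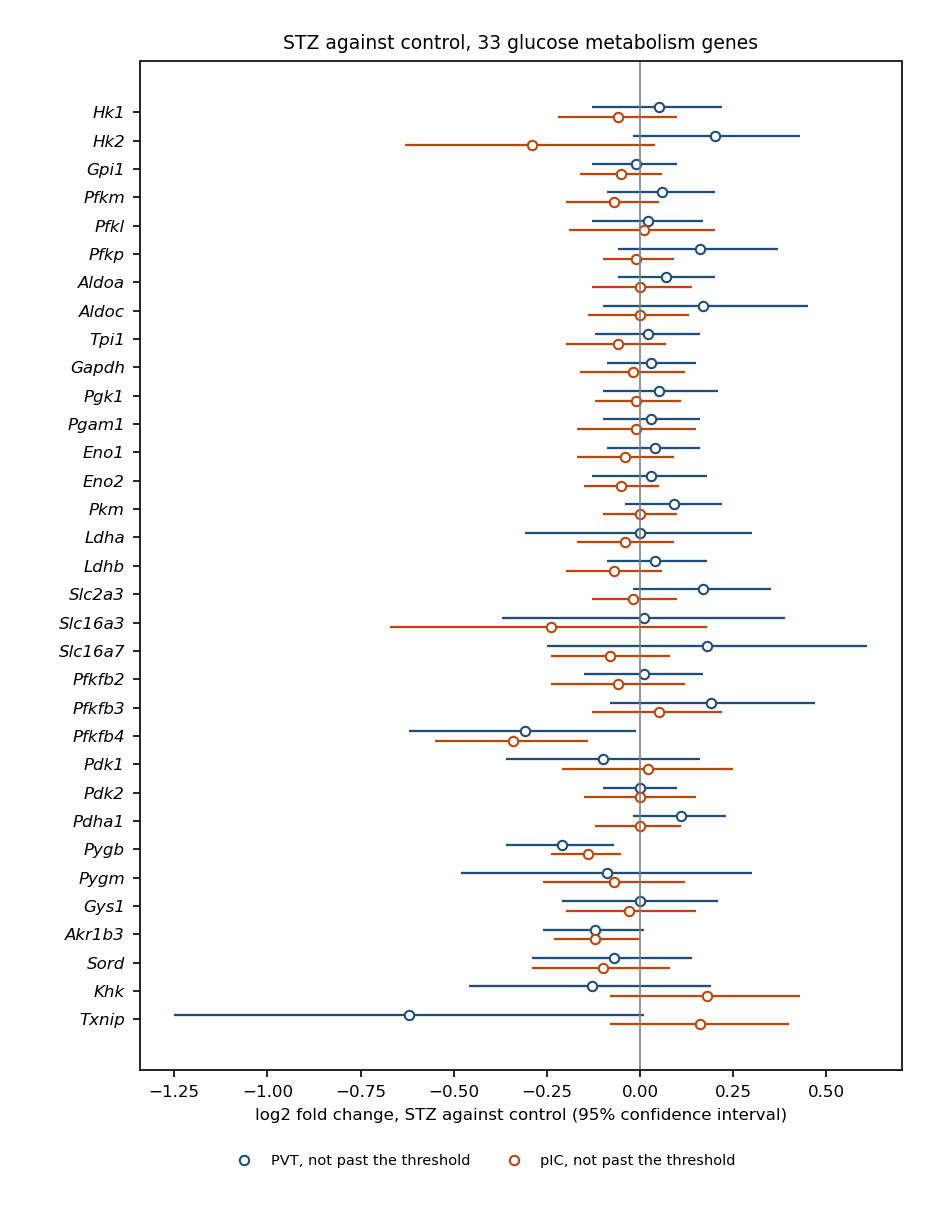
Log2 fold change of STZ against control for the 33 genes in PVT (blue) and pIC (orange), with 95% confidence intervals. All points are open because none passed an adjusted p of 0.05. Pygb and Pfkfb4 are the members whose intervals lie below 0 in both regions.

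Pygb (ENSMUSG00000033059), the brain isoform of glycogen phosphorylase, which releases glucose units from glycogen, had the smallest p of the members in PVT. Its PVT control libraries measured 285, 247, 268 and 243 CPM, and its PVT STZ libraries 211 to 242 CPM with a median of 222. In pIC the controls measured 193, 182, 179.8 and 177 CPM and the STZ libraries 157 to 174 CPM with a median of 166. The STZ libraries lay below every control in each region, as 3.91% of all genes did in PVT and 2.4% in pIC. The log2 fold change was -0.21 (SE 0.0654, adjusted p = 0.126, edgeR) in PVT and -0.14 (SE 0.046, adjusted p = 0.182, edgeR) in pIC, so neither passed over all genes. Over the alternatives the adjusted p ran from 0.0233 (all 20 libraries in 1 fit) to 0.477 in PVT and from 0.0489 (DESeq2) to 0.444 in pIC. Pygm, the muscle isoform that astrocytes also express, measured 42.7, 37.5, 46.9 and 33.9 CPM in PVT controls and 28.5 to 54.4 CPM (median 34.4) in PVT STZ libraries. The pIC values were 30, 37.2, 36.5 and 27.8 CPM in controls and 28 to 33.7 CPM (median 32.2) in STZ libraries. The groups overlapped in both regions for Pygm, as they did for Gys1, the synthase that builds glycogen, at 14.6 to 19.8 CPM in PVT and 13.4 to 18.1 CPM in pIC libraries.

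Pfkfb4 makes and breaks fructose 2,6-bisphosphate, the activator of phosphofructokinase. Its 4 pIC control libraries measured 10.5, 9.99, 10.8 and 10.1 CPM, and the STZ libraries 7.31 to 9.99 CPM with a median of 7.81. The groups touched but did not cross, with STZ replicate 2 just below the lowest control. In pIC the log2 fold change was -0.34 (SE 0.096, adjusted p = 0.117, edgeR). Without STZ replicate 2 it was -0.41, with an adjusted p of 0.0305, and without the 4 pIC libraries highest in striatal markers it was -0.22, with an adjusted p of 0.634. In PVT the controls measured 9.08, 9.5, 10.9 and 8.63 CPM and the STZ libraries 6.07 to 9.74 CPM (median 7.52), which overlap, with a log2 fold change of -0.31 (SE 0.139, adjusted p = 0.27, edgeR). Its relatives Pfkfb2 and Pfkfb3 had log2 fold changes of 0.01 and 0.19 in PVT and -0.06 and 0.05 in pIC.

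Akr1b3 encodes aldose reductase, the entry of the polyol pathway. PVT control libraries measured 39.9, 38.1, 41.3 and 45.8 CPM and STZ libraries 35.7 to 40 CPM with a median of 38.1. In pIC the values were 38.8, 38.1, 38.2 and 41.1 CPM for controls and 34.2 to 39.1 CPM (median 35.8) for STZ libraries. The groups overlapped in each region, and the log2 fold change was -0.12 in both (SE 0.0615 and 0.0536, adjusted p = 0.333 and 0.4, edgeR). An increase above a log2 value of 0.01 in PVT or 0.00 in pIC lay outside its 95% intervals. Sord, which turns sorbitol into fructose, had a log2 fold change of -0.07 in PVT and -0.10 in pIC, and Khk, which phosphorylates fructose, -0.13 and 0.18. None of the 3 passed the test in either region.

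Hk2 is a hexokinase that many cells induce. In PVT the control libraries measured 3.6, 3.41, 3.34 and 3.56 CPM and the STZ libraries 3.76 to 4.58 CPM with a median of 3.89, so every STZ library lay above every control, as for 2.28% of all genes. The log2 fold change was 0.20 (SE 0.102, adjusted p = 0.332, edgeR). In pIC the controls measured 5.03, 4.78, 3.34 and 4.25 CPM and the STZ libraries 2.71 to 4.43 CPM (median 3.47), which overlap, with a log2 fold change of -0.29 (SE 0.156, adjusted p = 0.501, edgeR). These levels rested on at most 112 reads a library.

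Txnip encodes thioredoxin-interacting protein, which limits glucose uptake. PVT control libraries measured 67.2, 42.3, 42.8 and 119 CPM and STZ libraries 33.3 to 52.8 CPM with a median of 45.4. The highest value belonged to control replicate 4, the library with pituitary transcripts. The log2 fold change in PVT was -0.62 (SE 0.283, adjusted p = 0.292, edgeR), and without that library it was -0.19 (adjusted p = 0.756). In pIC the controls measured 25.1, 20.3, 18.6 and 19.1 CPM and the STZ libraries 18.5 to 27.9 CPM (median 24.1), with a log2 fold change of 0.16 (SE 0.112, adjusted p = 0.628, edgeR).

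**Figure D3:**
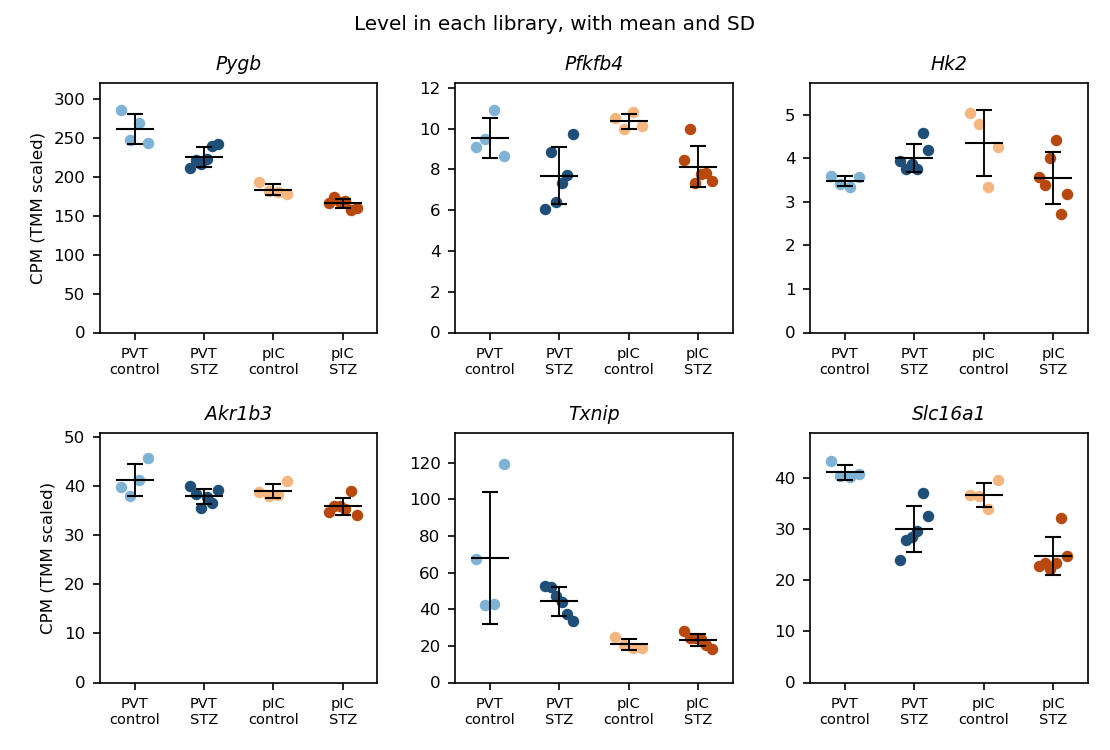
CPM in each library for Pygb, Pfkfb4, Hk2, Akr1b3, Txnip and the lactate carrier Slc16a1, with the mean and SD (black) of 4 control or 6 STZ libraries a region. Pygb and Slc16a1 are lower in all STZ libraries than in any control of the same region, and a single PVT control library lies at 119 CPM for Txnip.

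The difference between the regions in the STZ effect was tested as an interaction over all 20 libraries. Of the 33 members 0 passed in edgeR, as did 0% of 17427 genes, and 0 members passed in DESeq2, which called 4 genes. Unadjusted p was under 0.05 for 2 members, Hk2 and Txnip, and for 4.02% of all genes. Hk2 had the interaction value 0.49 (SE 0.183, adjusted p = 1, edgeR) and Txnip -0.79 (SE 0.326, adjusted p = 1, edgeR). Without PVT control replicate 4 the Txnip value was -0.37.

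Beyond the members, 127 further genes of the pathway and its neighbours were followed, of which 114 were tested in PVT and 110 in pIC. In PVT 1 rose and 2 fell, where 0.474% of all genes rose and 1.59% fell. In pIC 1 rose and 1 fell, where 0.432% of all genes rose and 0.964% fell. Slc16a1 encodes MCT1, the lactate carrier of oligodendrocytes, astrocytes and vessel walls. It measured 43.3, 40.3, 40.1 and 40.7 CPM in PVT controls and 24 to 37.1 CPM (median 29.1) in PVT STZ libraries. In pIC it measured 36.7, 36.4, 34 and 39.6 CPM in controls and 22.2 to 32.2 CPM (median 23.4) in STZ libraries. All STZ libraries of a region lay below all its controls. The log2 fold change was -0.46 (SE 0.103, adjusted p = 0.0474, edgeR) in PVT and -0.56 (SE 0.0947, adjusted p = 0.00685, edgeR) in pIC.

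The Slc16a1 call in PVT held in 6 of 19 alternatives, with an adjusted p of up to 0.246, and was lost when any library other than STZ replicate 5 was left out. In pIC it held in 18 of 19, the exception being the fit without the 4 libraries highest in striatal markers (adjusted p = 0.0933). The oligodendrocyte score of PVT libraries, a mean log2 CPM, was 8.48 to 8.73 in controls and 7.98 to 8.4 in STZ libraries, and its part in the result was not tested. In pIC it was 7.19 to 7.57 in controls and 6.81 to 7.88 in STZ libraries, and these overlapped.

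Bsg encodes basigin, the chaperone that brings MCT1 to the membrane. Its PVT controls measured 486, 494, 497 and 508 CPM and its PVT STZ libraries 379 to 447 CPM (median 389), without overlap. It fell in PVT, with a log2 fold change of -0.32 (SE 0.0582, adjusted p = 0.0218, edgeR), a call held in 11 of 19 alternatives. With the choroid plexus score as a covariate the value was -0.29 and the adjusted p 0.276, and without the 4 PVT libraries lowest in thalamus markers -0.25 and 0.25. The call was also lost without PVT control replicate 1, 3 or 4 or STZ replicate 3 or 4, with adjusted p from 0.0539 to 0.0646. In pIC the value was -0.22 (adjusted p = 0.129, edgeR). Slc2a1, which encodes the vessel and glial glucose carrier GLUT1, rose in PVT with a log2 fold change of 0.45 (SE 0.0788, adjusted p = 0.0173, edgeR), while its neuronal counterpart Slc2a3, a member, had 0.17 (SE 0.0848, adjusted p = 0.334, edgeR). The Slc2a1 call in PVT held in 15 of 19 alternatives. It was lost with the choroid plexus score as a covariate (adjusted p = 0.252), without PVT control replicate 4 (0.061) and without the 4 PVT libraries lowest in thalamus markers (0.198). In pIC the Slc2a1 value was 0.37 (SE 0.0943, adjusted p = 0.0866, edgeR), called in 4 of 19 alternatives, and the interaction was 0.07 (adjusted p = 1, edgeR). Gpd1, the cytosolic glycerol 3-phosphate dehydrogenase that takes electrons and carbon from the middle of glycolysis, measured 113, 111, 104 and 111 CPM in pIC controls and 127 to 149.7 CPM (median 137) in pIC STZ libraries, above every control as 1.88% of all genes were. It rose there, with a log2 fold change of 0.32 (SE 0.0529, adjusted p = 0.00611, edgeR), a call held in 18 of 19 alternatives and lost with all 20 libraries in 1 fit (adjusted p = 0.404). In PVT its STZ libraries also lay above all controls, at 76.1 to 106 against 37.9 to 75.4 CPM, with a log2 fold change of 0.74 that missed the threshold (SE 0.184, adjusted p = 0.0734, edgeR). There the Gpd1 difference was called in 4 of 19 alternatives, with DESeq2 and limma-voom (adjusted p = 0.00274 and 0.0372), with all 20 libraries in 1 fit (0.00598) and without PVT control replicate 2 (0.0259).

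PVT and pIC differed in most of these genes, in control and in STZ mice alike. These comparisons share no library with each other. In control mice 22 of 33 members passed the test, where 47.8% of 16614 genes did, and 18 of them were lower and 4 higher in PVT. In STZ mice 21 passed, where 49.1% of 16489 genes did, with 18 lower and 3 higher. Genes lower in PVT made up 22.4% and 23.1% of all genes tested, and genes higher in PVT 25.5% and 26%. Libraries of the regions did not overlap for 45.4% of all genes in control and 27.8% in STZ mice. These were 21.9% and 12.9% lower and 23.5% and 14.9% higher in PVT, so the separations given below for single members were common among all genes. The same 18 members were lower in both comparisons, and Pygb, Slc16a3 and Txnip were higher in both. Khk was higher in control mice alone, and the difference between control and STZ mice was not called (interaction -0.32, adjusted p = 1). The members' median log2 fold change was -0.26 in control and -0.16 in STZ mice, beside 0.02 for all genes. All 33 differences were tested against 0. Against a minimum fold of 2, glmTreat called 0 members in each. Upper quartile scaling, which moved the median of all genes to 0.10 in control mice, gave 5 higher and 15 lower there and 4 higher and 14 lower in STZ mice. The neuron, oligodendrocyte and other marker sums given above differed with the region. Choroid plexus markers summed to 1339 to 5991 CPM in PVT libraries and 5.95 to 143 CPM in pIC libraries. Ependymal markers summed to 70.2 to 150.5 CPM in PVT libraries and 8.04 to 16.8 CPM in pIC libraries. The part of these cells in the differences, lower or higher in PVT, cannot be told apart from the region itself.

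**Figure D4:**
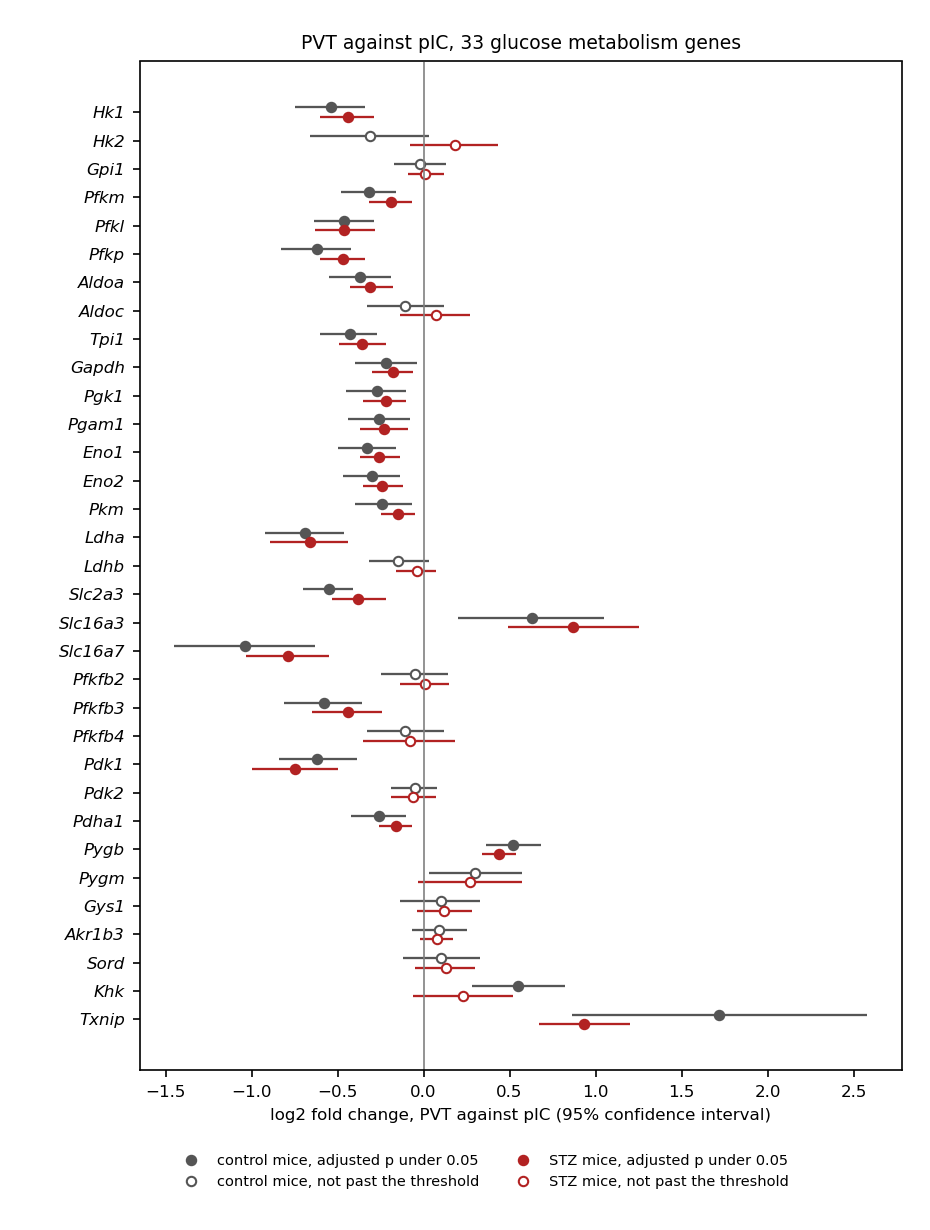
Log2 fold change of PVT against pIC for the 33 genes in control (grey) and STZ mice (red), with 95% confidence intervals and filled points for an adjusted p under 0.05. Most glycolytic enzymes lie left of 0, and Pygb, Slc16a3 and Txnip lie to the right in both.

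Of the enzymes that trap glucose, Hk1 was lower in PVT. It measured 280.5, 261, 271 and 215 CPM in PVT controls and 384, 373, 348 and 402 CPM in pIC controls, and 248 to 286 CPM (median 262) against 289 to 405 CPM (median 370.2) in STZ libraries. The regions did not overlap in either comparison, with log2 fold changes of -0.54 (SE 0.0915, adjusted p = 0.000669, edgeR) and -0.44 (SE 0.0722, adjusted p = 0.000235, edgeR). Hk2 and Gpi1, the isomerase that follows, passed in neither.

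Phosphofructokinase commits sugar to glycolysis, and transcripts of its 3 isoforms were all lower in PVT. Pfkp, the platelet type abundant in brain, measured 176, 228, 213 and 175 CPM in PVT controls and 293, 307, 315 and 311 CPM in pIC controls, and 194 to 246 CPM (median 222) against 297 to 312 CPM (median 305) in STZ libraries. Its log2 fold change was -0.62 in control and -0.47 in STZ mice (adjusted p = 0.000337 and 4.21e-05, edgeR). Pfkm, the muscle type, measured 330.3, 349.6, 359.8 and 302 CPM in PVT controls and 428, 409, 409 and 440.2 CPM in pIC controls, and Pfkl, the liver type, 118, 126, 127 and 109 against 168, 169, 148 and 180.4 CPM. Every PVT control lay below every pIC control for both. In STZ libraries Pfkm ran from 325 to 371 CPM (median 354) against 357 to 447 CPM (median 403), and Pfkl from 114 to 135 CPM (median 117) against 131 to 191 CPM (median 167), with overlap. The log2 fold changes were -0.32 and -0.19 for Pfkm and -0.46 in both for Pfkl.

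From aldolase to pyruvate kinase, 8 of 9 genes were lower in PVT in both comparisons, the exception being Aldoc, the astrocyte-rich aldolase. Aldoc measured 669.6 to 874 CPM in PVT controls and 739 to 901 CPM in pIC controls, with log2 fold changes of -0.11 (adjusted p = 0.422, edgeR) and 0.07 (adjusted p = 0.586, edgeR). Tpi1, which interconverts the triose phosphates, had the largest difference of the group. Its PVT controls measured 501, 525, 572 and 491 CPM and its pIC controls 702, 715, 679 and 738 CPM, with -0.43 in control and -0.36 in STZ mice. Aldoa, which splits fructose 1,6-bisphosphate, measured 1221, 1306, 1421 and 1227 against 1637, 1761, 1601 and 1728 CPM in controls, with -0.37 and -0.31. In the STZ libraries Tpi1 ran from 493 to 563 CPM (median 537) against 579 to 738 CPM (median 677), and Aldoa from 1264 to 1415 CPM (median 1369) against 1482 to 1924 CPM (median 1674). Neither gene overlapped between the regions.

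The enolases, which make phosphoenolpyruvate, were also lower in PVT. Eno1 measured 702, 699, 758 and 657 CPM in PVT controls and 858, 942, 845 and 907 CPM in pIC controls. Eno2, the neuronal form and also 1 of the neuron markers, measured 680.3, 811, 756 and 718 against 915, 952, 895 and 923 CPM. In STZ libraries Eno1 was 695 to 769.6 CPM (median 715) against 757 to 951 CPM (median 865), and Eno2 685 to 830 CPM (median 762) against 849 to 966 CPM (median 878). Eno2 did not overlap between regions in either comparison, and Eno1 overlapped in STZ libraries. The log2 fold changes were -0.33 and -0.26 for Eno1 and -0.30 and -0.24 for Eno2.

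Pgk1 and Pkm carry the ATP-yielding steps of glycolysis. Pgk1 measured 434, 462, 499 and 409.6 CPM in PVT controls and 534, 554, 544 and 565 CPM in pIC controls, and 428 to 497 CPM (median 477) against 501 to 606 CPM (median 547) in STZ libraries. Pkm measured 1144, 1168, 1248 and 1106 against 1369, 1390.4, 1357 and 1413 CPM in controls, and 1168 to 1357 CPM (median 1235) against 1318 to 1503 CPM (median 1360) in STZ libraries. Control libraries of the regions were separate for both genes. The log2 fold changes were -0.27 and -0.22 for Pgk1 and -0.24 and -0.15 for Pkm. Gapdh, the dehydrogenase often taken as a reference gene, measured 1491, 1498, 1662 and 1565 CPM in PVT controls and 1775, 2002, 1716 and 1789 CPM in pIC controls. Pgam1, the mutase before enolase, measured 519.8, 533, 588 and 507 against 641, 711, 598 and 646 CPM. Their STZ libraries overlapped between regions, at 1531 to 1669.5 CPM (median 1584) against 1661 to 2071 CPM (median 1734) for Gapdh and 511 to 576 CPM (median 555) against 554 to 735 CPM (median 628) for Pgam1. Gapdh had log2 fold changes of -0.22 (adjusted p = 0.047, edgeR) and -0.18 (adjusted p = 0.0159, edgeR), and Pgam1 -0.26 and -0.23 (adjusted p = 0.0203 and 0.0108, edgeR). Their copies elsewhere in the genome held at most 3.05% as many counts as Pgam1 itself and 0.0603% as many as Gapdh.

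The Gapdh call in control mice held in 5 of 15 alternatives and was lost without PVT control replicate 1 or 2 or any single pIC control. The Pkm call in control mice was lost without pIC control replicate 4 (adjusted p = 0.0561) and lay at the threshold without pIC control replicate 1, and that of Pgam1 without pIC control replicate 2. With upper quartile scaling, Pfkm, Gapdh, Pkm and Pdha1 were not called in STZ mice, nor Gapdh, Pkm and Pgam1 in control mice. With the label shared by PVT and pIC libraries as a block, Gapdh, Pkm, Pgam1 and Pdha1 were not called in control mice. No member's called difference changed sign in any alternative.

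Lactate dehydrogenase is built from LDHA subunits, which favour lactate formation, and LDHB subunits, which favour its use. Ldha measured 194, 265, 254 and 209 CPM in PVT controls and 351, 399, 362 and 384 CPM in pIC controls, and 172 to 287 CPM (median 240.4) against 318 to 392 CPM (median 362) in STZ libraries. The regions did not overlap, with log2 fold changes of -0.69 (SE 0.104, adjusted p = 0.000345, edgeR) and -0.66 (SE 0.105, adjusted p = 0.000201, edgeR). Ldhb measured 427, 503, 501 and 484 CPM in PVT controls and 515, 572, 527 and 519 CPM in pIC controls, and 462 to 533 CPM (median 491) against 466 to 570.1 CPM (median 497) in STZ libraries. Its log2 fold changes were -0.15 (adjusted p = 0.15, edgeR) and -0.04 (adjusted p = 0.528, edgeR).

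Of the carriers, Slc16a7 encodes MCT2, the high-affinity lactate carrier of neurons, and was lower in PVT. It measured 16.2, 27.1, 23 and 14.7 CPM in PVT controls and 40.9, 36.7, 45.3 and 44.4 CPM in pIC controls, and 17.5 to 27.8 CPM (median 23.6) against 36.1 to 44.4 CPM (median 39.3) in STZ libraries. All PVT libraries lay below all pIC libraries, with log2 fold changes of -1.04 (SE 0.181, adjusted p = 0.00137, edgeR) and -0.79 (SE 0.111, adjusted p = 8e-05, edgeR). Slc16a3, which encodes MCT4, the carrier of cells that export lactate, went the other way. It measured 2.64, 3.37, 4.01 and 3.01 CPM in PVT controls and 1.71, 2.51, 2.21 and 2.08 CPM in pIC controls, and 2.62 to 4.49 CPM (median 3.17) against 1.31 to 2.31 CPM (median 1.82) in STZ libraries. These low levels did not overlap within control or STZ mice. The log2 fold changes were 0.63 (SE 0.193, adjusted p = 0.0198, edgeR) and 0.87 (SE 0.177, adjusted p = 0.0012, edgeR), and the call in control mice was lost without PVT control replicate 3 or pIC control replicate 1 or 4. Slc2a3, the neuronal glucose carrier GLUT3, measured 116, 122, 112 and 114 CPM in PVT controls and 181, 165, 164 and 175 CPM in pIC controls. Its STZ libraries measured 111 to 153 CPM (median 131) in PVT and 151 to 178 CPM (median 175) in pIC, with log2 fold changes of -0.55 and -0.38.

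Among the regulators, Pfkfb3 and Pdk1 were lower in PVT and their relatives Pfkfb2, Pfkfb4 and Pdk2 passed in neither comparison. Pfkfb3 is the form with the strongest kinase activity, which makes fructose 2,6-bisphosphate. Pfkfb3 measured 42.9, 49.9, 42.5 and 35.6 CPM in PVT controls and 67.5, 55.6, 64.8 and 69.6 CPM in pIC controls. Its STZ libraries measured 38.7 to 58.9 CPM (median 49.9) against 57 to 73.1 CPM (median 66.2). Control libraries were separate and STZ libraries overlapped slightly, with log2 fold changes of -0.58 and -0.44 (adjusted p = 0.000908 and 0.00191, edgeR). Pdk1, a kinase that shuts off pyruvate dehydrogenase, measured 36.7, 46.7, 44 and 33.2 CPM in PVT controls and 61.2, 57.8, 62.4 and 66.7 CPM in pIC controls, and 31.2 to 45.1 CPM (median 36.2) against 45.2 to 71.2 CPM (median 65.3) in STZ libraries. The log2 fold changes were -0.62 and -0.75 (adjusted p = 0.000598 and 0.00016, edgeR). Pdk2 stayed at 83.3 to 108 CPM over all 20 libraries. Pdha1, the catalytic subunit of pyruvate dehydrogenase, measured 221, 238, 235 and 212 against 276, 254, 268 and 295 CPM in controls and 231 to 262 CPM (median 243) against 252 to 283 CPM (median 275) in STZ libraries, with log2 fold changes of -0.26 and -0.16.

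The glycogen and polyol genes were not part of that pattern. Of the 3 glycogen members Pygb passed, with log2 fold changes of 0.52 in control mice (SE 0.0737, adjusted p = 0.000238, edgeR) and 0.44 in STZ mice (SE 0.0455, adjusted p = 8.38e-06, edgeR), and its libraries as given above did not overlap between regions. Pygm had 0.30 and 0.27 (adjusted p = 0.0643 and 0.119, edgeR). It was called higher in 5 of 15 alternatives in control mice, among them upper quartile scaling, limma-voom and the fits without PVT control replicate 4 or pIC control replicate 2, and in 1 of 19 in STZ mice, without PVT STZ replicate 1. Gys1 had 0.10 and 0.12 (adjusted p = 0.484 and 0.205, edgeR). Akr1b3 and Sord had log2 fold changes of 0.08 to 0.13 over both comparisons, with no call in the main fit. Upper quartile scaling called Akr1b3 higher in PVT in STZ mice. Khk measured 8.57, 7.05, 8.16 and 8.67 CPM in PVT controls and 5.48, 6.23, 4.96 and 5.68 CPM in pIC controls, and 5.55 to 8.77 CPM (median 7.84) against 5.17 to 7.06 CPM (median 6.63) in STZ libraries. Its log2 fold changes were 0.55 (adjusted p = 0.00364, edgeR) and 0.23 (adjusted p = 0.181, edgeR). Txnip had 1.72 in control mice (SE 0.364, adjusted p = 0.00686, edgeR) and 0.93 in STZ mice (SE 0.122, adjusted p = 4.97e-05, edgeR), with no overlap in either. Without PVT control replicate 4 the value in control mice was 1.28 (adjusted p = 0.000677).

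Ratios of counts between members of a family, taken within a library, do not depend on scaling between libraries. They are ratios of counts, not of levels per length, and are given as a description. The log2 ratio of Ldhb to Ldha was 1.06 ± 0.133 (SD, n = 4) in PVT controls and 1.12 ± 0.272 (SD, n = 6) in PVT STZ libraries, against 0.51 ± 0.0524 (SD, n = 4) and 0.48 ± 0.148 (SD, n = 6) in pIC. For Slc16a3 to Slc16a7 it was -2.61 ± 0.302 and -2.81 ± 0.338 in PVT, against -4.31 ± 0.306 and -4.49 ± 0.377 in pIC, in the same order and numbers of libraries. Pdk1 to Pdk2 and Pfkfb3 to Pfkfb2 also differed between regions without overlap in control and in STZ mice, by -0.58 and -0.69 for the former and by -0.54 and -0.46 for the latter. The ratio of Eno1 to Eno2 lay between -0.26 and 0.12 in all 20 libraries. Between STZ and control libraries of a region, 1 of 22 ratios did not overlap. This was Pfkfb4 to Pfkfb2 in pIC, at -1.25 ± 0.196 (SD, n = 6) in STZ and -0.95 ± 0.104 (SD, n = 4) in control libraries.

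**Figure D5:**
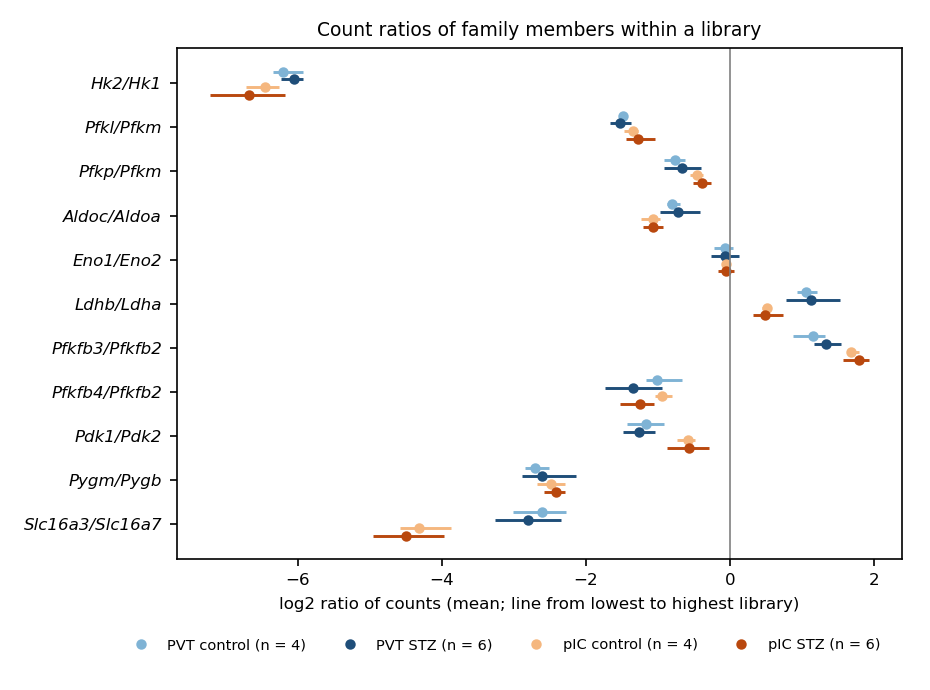
Log2 ratio of counts of 11 pairs of family members within a library, with the mean (point) and the range from the lowest to the highest library (line) of 4 control or 6 STZ libraries. PVT and pIC are separate for Ldhb/Ldha, Pfkfb3/Pfkfb2, Pdk1/Pdk2 and Slc16a3/Slc16a7.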

How the data were processed

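The authors deposited a table of raw read counts per gene for all 20 libraries, made from RNA-seq of punches of PVT and pIC. The build was GRCm39 (mm39), per the submitters' processing notes, and the sources used here name no aligner, counter or strand setting. Without a known strand setting, reads of overlapping antisense genes cannot be told apart. Total counts were 17939029 to 25533369 a library, and no 2 libraries of the same group agreed within sampling noise.

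The groups were taken from the labels. Each comparison was fitted with edgeR 4.0.16 in R 4.3.3 (robust quasi-likelihood, TMM scaling, filterByExpr with a minimum count of 10 and a minimum total of 15). A call is a Benjamini-Hochberg adjusted p under 0.05 over all genes tested, and the SE is the size of the log2 fold change divided by the square root of F. CPM used TMM factors over all 20 libraries. Exon lengths for CPM per kb were the union of all exons of a gene in the GRCm38 annotation. DESeq2 1.42.0, limma-voom (limma 3.58.1), other scalings, no filter, a replicate block, covariates and left-out libraries were the alternatives. The procedure was tested on simulated data, with known changes given to genes drawn from all those tested. Of 1.5-fold changes it recovered 43.3% for STZ in PVT, 62.7% for STZ in pIC and 28.4% for the interaction. Of 2-fold changes it recovered 68.7%, 88.1% and 70.1% in the same order.

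The members and lists were chosen with earlier results of these data known. Members called in any comparison, and Txnip, Slc2a3, Hk1, Hk2, Ldha, Ldhb, Pygm and Akr1b3, have values by library, and the others have ranges and counts. From each other pathway list, up to 4 called genes were eligible to be named, by smallest p in each comparison.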

Additional observations from a re-analysis of the deposited data

Results flagged for a closer look

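Of 132 groups of libraries examined for a library far from the rest, 2 held one, where chance flags about 1 in 20. Aldoa measured 1264 CPM in PVT STZ replicate 6, below the other 5 libraries of its group at 1362 to 1415 CPM. Pkm measured 1503 CPM in pIC STZ replicate 5, above the other 5 libraries at 1318 to 1385 CPM.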

How the results depend on the processing

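No called difference of a member changed sign in any alternative. Under STZ the count of members called, 0 in each region, became 1 in PVT with all 20 libraries in 1 fit (Pygb) and 1 in pIC with DESeq2 (Pygb). Leaving out 1 library gave 0 to 1 in pIC, the 1 being Pfkfb4 without STZ replicate 2. Between regions, glmTreat against a minimum fold of 2 called 0 members in control and 0 in STZ mice, and leaving out 1 library gave 19 to 23 in control and 21 to 22 in STZ mice. Upper quartile scaling gave 20 and 18. Over all genes, the calls in PVT ran from 63 with the choroid plexus score as a covariate to 904 with DESeq2, beside 353, and those in pIC from 127 to 468, beside 226. Upper quartile scaling gave 58 higher and 416 lower genes in PVT, beside 81 and 272. The replicate block was the replicate number, shared by control and STZ libraries, in the STZ comparisons. In the region and interaction comparisons it was the label, shared by PVT and pIC libraries. With the block, members called were 0 in PVT, 0 in pIC and 0 for the interaction. Between regions they were 19 in control and 21 in STZ mice. In control mice Gapdh, Pgam1, Pkm and Pdha1 were not called and Pygm was. The calls over all genes were 72 in PVT and 240 in pIC. The block also ended the PVT calls of Slc16a1, Bsg and Slc2a1 and called Slc2a1 in pIC. The labels do not say that libraries with the same label came from the same mouse. Their deviations in PVT and pIC correlated at -0.0881 to 0.211, and 9 of 20 libraries correlated best with their own label. Control and STZ libraries of the same number correlated at -0.262 to 0.44 in PVT and -0.0428 to 0.304 in pIC, so the numbers were not taken as pairs. Depth limits Hk2 and Slc16a3 most, the members with the lowest levels per kb.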

Other observations

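Of the further pathway genes, 34 were higher and 27 lower in PVT than in pIC of 113 tested in control mice (54% called, beside 47.8% of all genes). In STZ mice 33 were higher and 28 lower of 112 (54.5%, beside 49.1%), so these shares lay near the background. Of 8 pentose phosphate genes tested, 4 were higher in PVT and 0 lower in each, a called share of 50% again near the background, where 25.5% and 26% of all genes were higher. G6pdx, the entry enzyme, had log2 fold changes of 0.35 and 0.41 (adjusted p = 0.0055 and 0.0018, edgeR). Of 10 cytosolic redox shuttle genes, 1 was higher and 6 were lower in each, where 22.4% and 23.1% of all genes were lower. Gpd1 was among the lower ones, at -1.0 and -0.58 (adjusted p = 0.00346 and 3.51e-05, edgeR). Among the further glycogen genes, Pygl, the liver type of glycogen phosphorylase, was higher by 1.32 and 1.13 and Gaa, the lysosomal glucosidase that digests glycogen, by 1.27 and 1.12. Ppp1r3g, a glycogen-targeting phosphatase subunit, was lower at -1.33 and -0.76. The glucose carrier gene Slc2a12 had 3.31 and 3.01. Pdp1, the phosphatase that reactivates pyruvate dehydrogenase, had -1.04 and -0.54 (adjusted p = 0.000199 and 0.000347, edgeR).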
